A study of Bos taurus
Mus musculus with 10 samples.

Results

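Bovine embryonic stem cells were compared after 1 day in medium from which IWR-1 had been removed and after the same day in medium that kept it. All bovine genes of the deposited table belong to the comparison, 27590 of the 58939 bovine and mouse genes that the series measured, and 18506 of them passed a filter on low values and were tested. The rest, under 10 normalised reads in at least 6 wells, were not tested. The stem cells came from 5 lines, numbered 1, 2, 4, 8 and 11, of wild-type genotype, and had been derived from blastocysts. Every line was grown on mouse embryonic fibroblasts taken from CD-1 fetuses and treated with mitomycin C. One well of each line stayed in mTeSR1 medium containing IWR-1 at 2.5 µM, whereas its partner was changed to the same medium without it, so that 5 wells stood against 5. Both kinds of well had been kept with IWR-1 until then, and all 10 wells held feeders. Each well was sequenced as a whole, with poly(A) selection, and contributed reads from both species. Values of single wells are normalised reads and are given in the order of lines 1, 2, 4, 8 and 11. A number in parentheses after a gene is its log2 fold change, removed minus kept, with the standard error (SE) where one follows.

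IWR-1 inhibits the tankyrases, enzymes that mark the scaffold protein AXIN for degradation. With tankyrase blocked, AXIN accumulates, the destruction complex holds beta-catenin low, and transcription through TCF and LEF factors is dampened. The tankyrases also act on other proteins, among them the angiomotins, which retain the Hippo co-activators YAP and TAZ outside the nucleus. Bovine embryonic stem cells are commonly maintained in a primed pluripotent state with FGF, activin-type signals and a Wnt inhibitor of this kind.

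The wells yielded 48064953 to 64345738 reads on bovine genes, so counting error chiefly concerns genes near the filter. The labelled cell type was checked on its markers: POU5F1 ranged from 19326 to 62019 normalised reads with IWR-1 and from 18294 to 58134 without it, and SOX2 from 13611 to 22072 and from 13371 to 19067. Neither gene was called between the media (limma log2 fold change -0.01 ± 0.08 SE, adjusted p = 0.988, and -0.10 ± 0.06 SE, adjusted p = 0.695). Of 10 tested pluripotency markers limma and edgeR each called 1 higher and 0 lower, DESeq2 called 1 higher and 1 lower, and at an unadjusted limma p under 0.05 there were 3 higher and 1 lower. The pluripotency factor NANOG was the one that rose, from 1862, 1736, 1551, 1199 and 1405 to 2520.4, 2265, 1918, 1330.3 and 1818 normalised reads (0.33 ± 0.06 SE, limma adjusted p = 0.0411), and the call was lost without line 1, 2, 4 or 11. The methyltransferase gene DNMT3B, which limma did not call, was lower in every line (-0.27 ± 0.07 SE, limma adjusted p = 0.107). Limma called none of 4 trophoblast and 5 hypoblast markers, of which 0 and 1 had an unadjusted p under 0.05 and DESeq2 called 0 and 1. Line 4 stood apart from the others in both media. Its summed level of 14 bovine fibroblast markers was 238341 and 254768 with and without IWR-1, against at most 114751 and 115277 elsewhere. VIM, the largest marker in these sums, stood at 114746 and 117893 in line 4 and at 39381 to 83132 elsewhere. COL1A2 stood at 28291 and 30918 in line 4 against at most 372 elsewhere, and COL3A1 at 27503 and 29627 against at most 537. For LUM and TWIST2 the kept well of line 11 was higher than that of line 4. Limma and edgeR called none of these 14 markers and DESeq2 called 2 higher; at an unadjusted p under 0.05 limma had 4 higher and 1 lower. Mouse genes took 21.2% to 33.3% of the reads in the other lines and 42.3% and 41.4% in line 4, and this share dropped by 3.64 ± 2.17 percentage points on average after removal, with each line lower (SD, n = 5; exact sign-flip test, p = 0.0625, the smallest that 5 pairs allow).

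Removal of IWR-1 was followed by more rises than falls. Among the 18506 genes 164 rose and 12 fell, which is 0.951% called in all, 0.886% upward and 0.0648% downward (limma with the line as a block, Benjamini-Hochberg adjusted p under 0.05). All 176 moved in 1 direction in every line, which held upward for 6.2% and downward for 4.92% of all tested genes. The calls rest on these same within-line differences, so this agreement is no separate support for them. Most changes were small: 24 genes rose at least 2-fold, 61 rose between 1.5-fold and 2-fold, and 79 rose by less. At an unadjusted p under 0.05 there were 1170 genes higher (6.32%) and 700 lower (3.78%). The median log2 fold change over all tested genes was -0.005. With the genes split into 4 equal bins by mean level, 3, 59, 68 and 46 were called from the lowest bin to the highest. The calls depend on setting wells of 1 line against each other: with the medium as the only term limma and edgeR each called 0, and limma left 105 genes at an unadjusted p under 0.05. Limma without its trend of variance on level called 0, with all 176 at an unadjusted p under 0.05. With the mouse share added as a term limma called 0, with 456 at an unadjusted p under 0.05 and the sign of all 176 kept; their median absolute log2 fold change was 0.467 with that term and 0.561 without it.

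**Figure D1:**
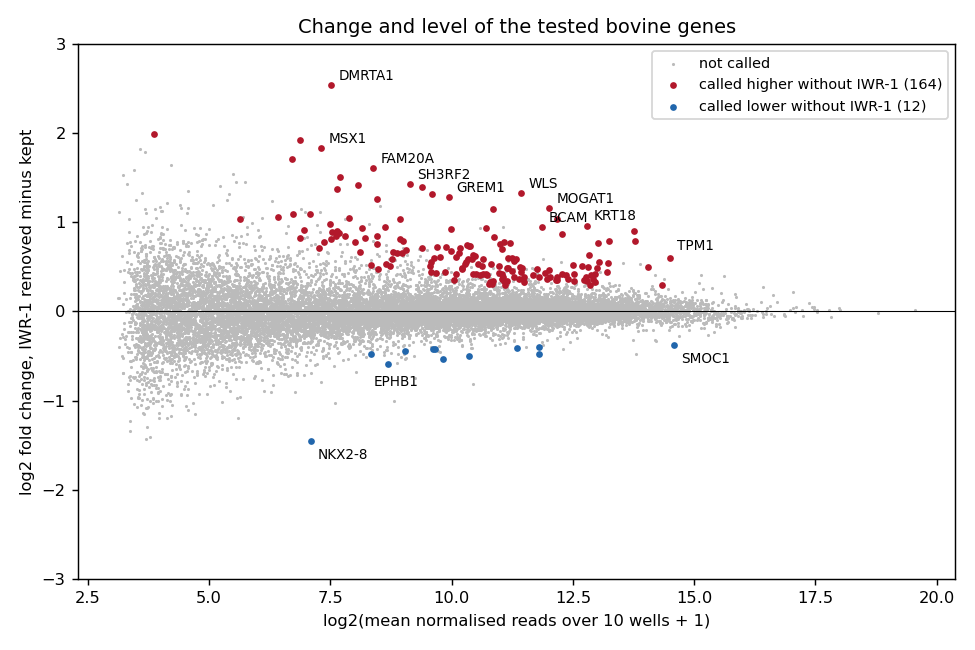
Limma log2 fold change (IWR-1 removed minus kept, vertical axis) against the mean level, as log2 of normalised reads plus 1 (horizontal axis), for the 18506 tested bovine genes; each point is 1 gene, red for the 164 that rose and blue for the 12 that fell. Called genes lie mainly above the zero line, from DMRTA1 at 2.54 to small changes of well-expressed genes such as TPM1 at 0.60 and SMOC1 at -0.38. DMRTA1 had 0 normalised reads in the kept well of line 1 and changed by 0.03 in line 4. Its call was lost without line 1, 2, 8 or 11.

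For most called genes wells with and without IWR-1 overlapped. Only 6 of the 164 genes that rose had every well without IWR-1 above every well with it, namely CCN1, AJUBA, AMOTL2, TEAD4, MATN2 and CAST; over all tested genes this held for 13, or 0.0702%. None of the 12 genes that fell had separate groups, which held downward for 8 of all tested genes (0.0432%). TEAD4, a DNA-binding partner of YAP and TAZ, stood at 1347, 1379.6, 1264, 1295 and 1304 normalised reads with IWR-1 and at 2693, 3281, 1856, 1845 and 2392 without it (log2 fold change 0.84 ± 0.10 SE, limma adjusted p = 0.00541). All 5 removed wells lay above the narrow band of the kept wells. Its call was lost without line 1 (0.73 to 0.92 over the 5 refits that lack a line).

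To describe the functional classes, each tested gene was placed in 1 of 31 classes. Protein-coding genes with a proper symbol were sorted by symbol family, other genes by biotype or by the lack of a symbol. These shares describe the calls and were given no test. The share called was 12.2% of 49 genes of keratins, neurofilaments, lamins and the nuclear envelope, 6.71% of 313 genes of the actin cytoskeleton and contraction, and 5.26% of 228 genes of the extracellular matrix. Together these 3 classes held 39 of the 176 called genes (22.2%) and 590 of the tested genes (3.19%). Secreted signals followed with 3.2% of 250, transcription factors with 2.72% of 515, adhesion and junction genes with 2.15% of 279 and receptors with 1.88% of 480. Kinases and phosphatases (1.62% of 554) and regulators of small GTPases (1.31% of 458) were nearer the background of 0.951%. Metabolic enzymes (0.893% of 896), channels and transporters (0.728% of 687), membrane traffic (0.81% of 494), the ubiquitin system (0.508% of 590) and RNA-binding proteins (0.349% of 573) were below it. The 6, 21 and 12 calls of the 3 leading classes became 3, 9 and 2 without line 1, 3, 7 and 2 without line 11, and 3, 15 and 7 without line 4. In bulk RNA a change in the number of cells of a kind and a change in RNA per cell cannot be told apart. Genes named beyond the naming rule were chosen after their values were seen.

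**Figure D2:**
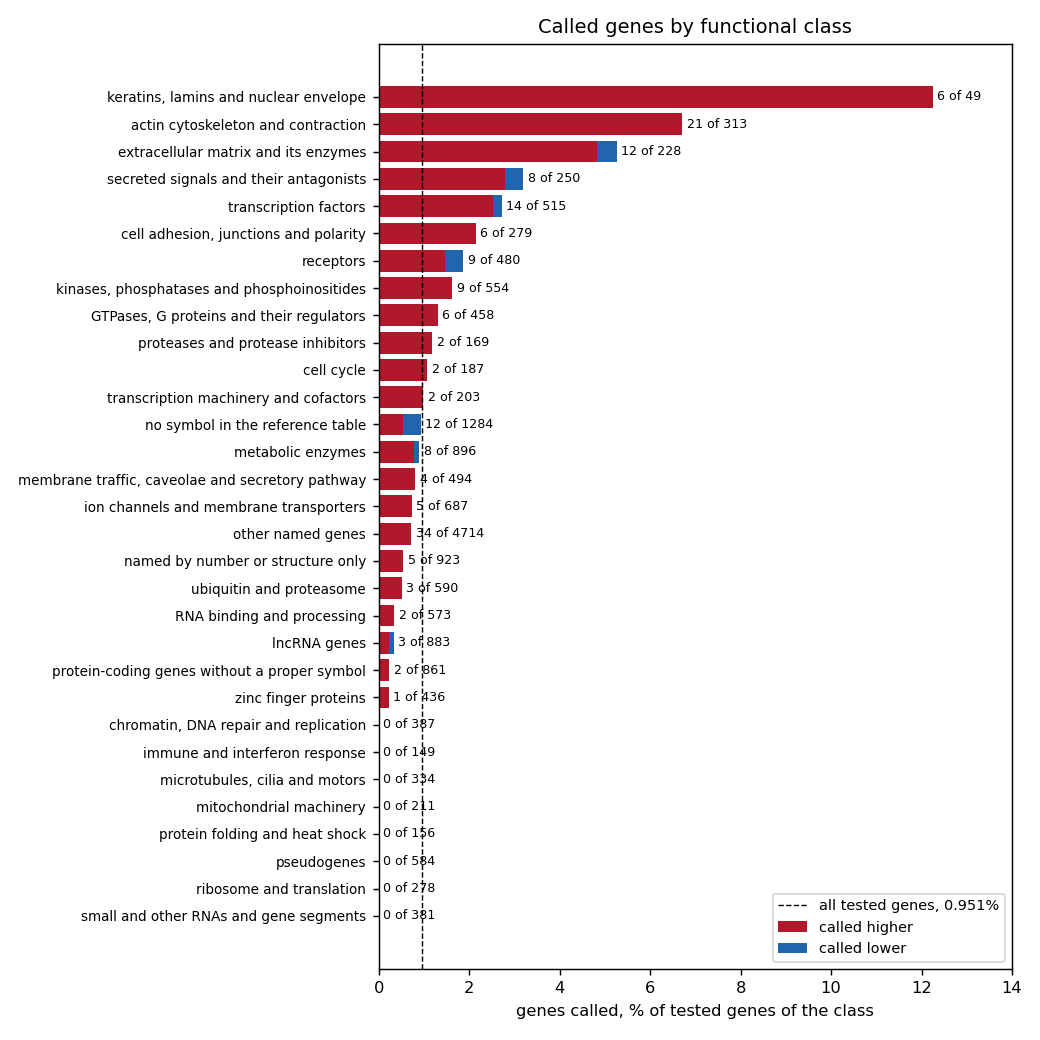
Share of tested genes called, in percent, for each of 31 functional classes (red, higher without IWR-1; blue, lower), with the number called of the number tested beside each bar and the share over all tested genes, 0.951%, as a dashed line. The keratin, actin and matrix classes extend farthest, and 8 classes have no called gene.

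Within the actin and contraction class 21 genes rose and 0 fell, and 292 were not called; at an unadjusted p under 0.05 there were 72 higher and 5 lower, and edgeR called 21 higher and DESeq2 35, with 0 lower by each. In the whole class 214 of its 313 members (68.4%) had a positive log2 fold change, with a median of 0.06, against 48.4% and -0.005 over all tested genes. TPM1, a tropomyosin that coats actin filaments, had 12550.1, 18473, 22639, 15216 and 23192 normalised reads with IWR-1 and 18463, 29106, 34102, 23143 and 35324 without it. Every line gained, by 0.56 to 0.66 on the log2 scale, although lines 1 and 8 without IWR-1 remained within the range of the other lines with it (mean 0.60 ± 0.05 SE, limma adjusted p = 0.00108). TAGLN, the actin-bundling protein transgelin, went from 2097, 8941, 20048, 4529 and 13059 to 4427, 13252, 34243, 8479 and 29502 (0.90 ± 0.08 SE, adjusted p = 0.00121). Line 1 was the lowest for it in both media and the groups overlapped.

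Other rises in the class concerned filament proteins of muscle type: the calponin gene CNN1 (0.59), caldesmon CALD1 (0.48), leiomodin LMOD1 (0.66), the myosin light chains MYL9 (0.51) and MYL7 (1.06), CSRP1 (0.39) and the alpha-actinin ACTN3 (0.51). MYL7, a light chain of atrial myosin, had few reads, 9.11 to 108 with IWR-1 and 14.8 to 261 without it. The muscle actins ACTA2 (0.87 ± 0.09 SE), ACTC1 (0.77 ± 0.11) and ACTA1 (0.65 ± 0.09) also rose. Their coding sequences are nearly identical, and the assignment of reads they share was not given in the sources used here, so the change of each single actin is uncertain. Regulators of filaments and junctional tension formed a further group: AJUBA, a LIM protein of adherens junctions, SHROOM2, which binds actin at the cell apex, AMOTL2, an angiomotin family member, the cofilin kinase LIMK2 (0.35), the formin INF2 (0.43), LIMCH1 (0.44), the muscle ankyrin repeat gene ANKRD1 (1.92), AFAP1L2 (0.78) and FRMD3 (0.78).

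AJUBA stood at 4566, 5458, 3832, 4730.1 and 5164 normalised reads with IWR-1 and at 6542, 8329.5, 5565, 6838 and 6919 without it (0.52 ± 0.05 SE, limma adjusted p = 0.00194). Its wells did not overlap. SHROOM2 went from 933, 1384, 1254, 429 and 1028 to 1301, 1997, 2036, 590.4 and 1566 (0.55 ± 0.07 SE, adjusted p = 0.00453); line 8 was the lowest in both media and the groups overlapped. TPM1, TAGLN, AJUBA, ACTA2, AMOTL2, SHROOM2 and ACTC1 were called whichever line was left out. Calls in the class were lost for MYL9, ACTA1, CALD1, ANKRD1 and LIMCH1 without line 1 or 11, LMOD1 without line 11, CNN1 and LIMK2 without line 1, 4 or 11, AFAP1L2 without line 1, 8 or 11, CSRP1 without line 4, 8 or 11, INF2 and ACTN3 without any 1 of the 5 lines, MYL7 without line 1, 4, 8 or 11 and FRMD3 without line 1, 2, 8 or 11. Actin and contractile genes are also strong in fibroblasts; of the 14 bovine fibroblast markers limma and edgeR called none and DESeq2 called 2 higher, 10 were positive, 4 were higher in every line and their median log2 fold change was 0.16. Their summed level spanned 52016 to 238341 in kept wells and 52041 to 254768 in removed wells, and their part in these rises was not tested.

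Matrix genes rose in 11 cases and fell in 1, with 216 not called; 159 of 228 (69.7%) had a positive log2 fold change, with a median of 0.10. The matricellular proteins CCN2 (0.78 ± 0.06 SE), CCN1 (1.04 ± 0.09) and thrombospondin THBS1 (0.77 ± 0.10) signal between matrix and cell rather than form fibres. THBS1 had 2125, 4567, 15442, 4067 and 5208 normalised reads with IWR-1 and 4583, 8866, 23849, 4970.4 and 9582 without it (limma adjusted p = 0.00858). Line 4 was the highest in both media, and each line gained. MATN2, a matrilin that links matrix filaments, rose from 484, 433, 356, 373 and 386 to 771, 603, 799.8, 541 and 579 (0.69 ± 0.11 SE, adjusted p = 0.0195), with no overlap between media.

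Genes that remodel or assemble the matrix were represented by LOXL2, a lysyl oxidase that cross-links collagen (0.42 ± 0.07 SE), TIMP3, an inhibitor of metalloproteinases (0.51 ± 0.07), and MMP3, a metalloproteinase (1.99 ± 0.38). MMP3 was near the limit of detection, at 0 to 14.7 normalised reads with IWR-1 and 5.77 to 34.5 without it. Of its kept wells only that of line 2 reached the 10 normalised reads of the filter. MMP3 was thus tested only because of its removed wells, where it was high, so its call carries little weight. TINAGL1 (1.10), SVEP1 (0.74), EGFLAM (0.66) and FBLN7 (0.53) completed the genes that rose. SMOC1, a secreted calcium-binding matrix protein, was the member that fell. SMOC1 stood at 16326, 24563, 4761, 29336 and 62848 normalised reads with IWR-1 and at 13784, 21298, 3184, 21458 and 47510.1 without it (-0.38 ± 0.07 SE, adjusted p = 0.0314). The level was highest in line 11 and lowest in line 4 in both media, and the groups overlapped. CCN1 and CCN2 were called whichever line was left out. Calls were lost for THBS1, MATN2 and TINAGL1 without line 1 or 11, TIMP3 and LOXL2 without line 1, 4 or 11, SVEP1 without line 1, 2 or 11, FBLN7, EGFLAM and MMP3 without any 1 of the 5 lines and SMOC1 without line 1, 4, 8 or 11. The collagen gene COL1A1, a member of the class and also a fibroblast marker, was higher in each line without being called by limma: 6825, 9931, 44002, 11952 and 21943 normalised reads with IWR-1 and 8196, 15323, 49905, 13412 and 32659.6 without it (0.36 ± 0.08 SE, adjusted p = 0.0711). The fibroblast marker PDGFRB likewise went from 926, 1354, 3259, 1508 and 2425 to 1624, 2867, 3719, 1718 and 3556 (0.56 ± 0.12 SE, adjusted p = 0.0613). Other fibroblast markers moved otherwise. COL1A2 went from 134, 348, 28291, 171 and 372 to 89.7, 263, 30918, 131 and 308. DCN was also lower in lines 1, 2, 8 and 11 and higher in line 4. Of the 14 fibroblast markers 10 had a positive log2 fold change and 4 were higher in every line. The part of fibroblast-like cells in the matrix changes was not tested.

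The intermediate filament and nuclear envelope class had 6 rises and 0 falls among 49 genes. The class median was 0.01, 29 of 49 genes were positive, and 9 had an unadjusted limma p under 0.05, all higher; edgeR called 6 higher and DESeq2 7, with 0 lower by each. KRT8 and KRT18, which pair into the filaments of simple epithelia, rose by 0.79 ± 0.09 SE and 0.96 ± 0.08 SE, and KRT19 by 0.48 ± 0.08. KRT8 stood at 7256, 7337, 2431, 20649 and 13405 normalised reads with IWR-1 and at 9830.4, 11108, 5516, 38941 and 23795 without it (limma adjusted p = 0.00453), and line 4 gained most, 1.18 on the log2 scale. The neurofilament genes NEFH (0.71 ± 0.14) and NEFM (0.33 ± 0.06) rose too. SYNE3, a nesprin that links the outer nuclear membrane to the cytoskeleton, went from 24.3, 20.0, 386, 126 and 163 to 54.2, 72, 894, 235 and 691 (1.42 ± 0.18 SE, adjusted p = 0.0069). All lines gained, from 0.89 in line 8 to 2.08 in line 11, and the groups overlapped. KRT8, KRT18 and SYNE3 were called in every refit lacking a line, and calls were lost for KRT19 without line 1, 4 or 11 and NEFH and NEFM without any 1 of the 5 lines.

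Adhesion and junction genes numbered 6 rises and 0 falls among 279 by limma, with 41 higher and 12 lower at an unadjusted p under 0.05. By edgeR there were 7 higher and 0 lower, and by DESeq2 20 higher and 2 lower. BCAM, a laminin-binding adhesion molecule, stood at 1117, 2485, 1973, 2003 and 5028 normalised reads with IWR-1 and at 2109, 5999, 3015, 4154 and 9279 without it (0.95 ± 0.08 SE, limma adjusted p = 0.00108). Each line gained at least 0.61 on the log2 scale, and the groups overlapped. GJA1, which encodes the gap junction protein connexin 43, went from 711, 3744, 13313, 5322 and 12520.2 to 1133, 7949, 16843, 9038 and 26496 (0.79 ± 0.10 SE, adjusted p = 0.0069). Line 1 was the lowest in both media, and line 4 gained least, 0.34. The integrin subunits ITGA8 (0.71 ± 0.10) and ITGB5 (0.67 ± 0.13), the desmosomal protein PERP (0.39 ± 0.07) and the tetraspanin TSPAN9 (0.41 ± 0.07) made up the rest. BCAM and GJA1 were called in every refit lacking a line, and calls were lost for ITGA8 without line 1 or 11, ITGB5 without line 1, 8 or 11 and PERP and TSPAN9 without line 1, 4, 8 or 11.

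Secreted signals rose in 7 cases and fell in 1, PDYN, among 250 tested; 157 members were positive, with a class median of 0.08. The genes that rose encode ligands of several families: BMP4, the platelet-derived growth factor PDGFB, VEGFA, the chemokine CXCL12 and the FGF-binding carrier FGFBP3, with the BMP antagonist GREM1 and the phosphoprotein SPP1. GREM1 stood at 98.2, 273, 1179, 159 and 948 normalised reads with IWR-1 and at 217, 578, 2477, 377 and 3533 without it (1.28 ± 0.12 SE, limma adjusted p = 0.00128). Its 5 lines all at least doubled, and line 1 was the lowest in both media. PDGFB went from 87.1, 86.2, 179.7, 154 and 217 to 133, 217, 317, 324 and 328 (0.88 ± 0.14 SE, adjusted p = 0.0188). CXCL12 rose by 0.49 ± 0.07 SE (adjusted p = 0.0131), VEGFA by 0.63 ± 0.09, BMP4 by 0.72 ± 0.10, FGFBP3 by 0.95 ± 0.18 and SPP1 by 1.27 ± 0.20. GREM1 was called in every refit lacking a line, and calls were lost for PDGFB, CXCL12 and VEGFA without line 1 or 11, BMP4 without line 11, SPP1 without line 1, 8 or 11, FGFBP3 without line 1, 4, 8 or 11 and PDYN without any 1 of the 5 lines.

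On the receiving side, 7 of 480 receptor genes rose and 2 fell. LPAR6, a receptor for lysophosphatidic acid, had the smallest adjusted p. LPAR6 stood at 1133, 1691, 2591, 2866 and 3089.8 normalised reads with IWR-1 and at 1822, 2131, 3896, 4097 and 4029 without it (0.50 ± 0.07 SE, limma adjusted p = 0.00837). The 5 lines each gained, line 1 was the lowest in both media and the groups overlapped. ROR2, a receptor tyrosine kinase that binds WNT5A, rose by 0.38 ± 0.06 SE and was highest in line 4 in both media. TEK, the angiopoietin receptor, rose by 0.59 ± 0.11, the receptor phosphatase PTPRU by 0.42 ± 0.08, the orphan receptor GPRC5C by 0.34 ± 0.06, the R-spondin receptor LGR5 by 0.89 ± 0.17 and the natriuretic peptide receptor NPR3 by 1.37 ± 0.23. WLS, which carries Wnt ligands to the cell surface, lay outside the pattern classes and went from 47.6, 66.2, 10729, 128 and 263 to 180.3, 123, 14851, 378 and 926 (1.32 ± 0.19 SE, adjusted p = 0.0131). Line 4 exceeded every other line by more than an order of magnitude in both media, yet the rise was present in the other lines as well. Calls were lost for LPAR6 without line 1, ROR2 without line 1, 4 or 11, TEK and WLS without line 1 or 11, PTPRU and GPRC5C without any 1 of the 5 lines, LGR5 without line 1, 2, 8 or 11 and NPR3 without line 1, 8 or 11.

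Intracellular signalling genes gave 9 rises and 0 falls by limma among 554 kinases, phosphatases and related genes, and 6 rises and 0 falls among 458 genes of small GTPases and G proteins. At an unadjusted p under 0.05 the former had 53 higher and 17 lower and the latter 45 and 14. Among the kinase and phosphatase genes edgeR called 10 higher and 0 lower and DESeq2 20 and 1, and among the GTPase genes 8 and 0, and 10 and 0. LYN, a Src-family kinase, went from 1573, 1617, 1255, 1796 and 2855 to 2767, 3026, 1774, 2363 and 3716 (0.60 ± 0.09 SE, limma adjusted p = 0.0131). Line 11 was the highest in both media and the groups overlapped. DAPK3 (0.38 ± 0.06), which phosphorylates myosin light chain, rose, as did MAP3K20 (0.41), PIM1 (0.42), SIK1 (0.34) and the phosphatase DUSP8 (0.36), which act in stress and growth signalling. WWC1 (0.41) and WWC2 (0.35), scaffolds of the Hippo pathway, were sorted here and rose together. FAM20A, a pseudokinase, rose by 1.61 ± 0.17 SE. Among GTPase genes, CDC42EP1 (0.36 ± 0.06), an effector of CDC42, RHOB (0.42), and the GTPase-activating proteins ARHGAP45 (0.34 ± 0.06), SYDE1 (0.30) and SYDE2 (0.67) rose. RIPOR2 (0.93 ± 0.12) and RIPOR3 (1.09 ± 0.17), of which the former inhibits RHOA, rose outside the pattern classes. FAM20A was called in every refit lacking a line. Calls were lost for LYN and RIPOR2 without line 1, DAPK3, WWC2, CDC42EP1, RHOB and ARHGAP45 without line 1, 4 or 11, MAP3K20 without line 1, 2, 8 or 11, PIM1 without line 1, 4, 8 or 11, SIK1, DUSP8 and WWC1 without any 1 of the 5 lines, SYDE1 and SYDE2 without line 1, 2, 4 or 11 and RIPOR3 without line 1 or 11.

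Transcription factors rose in 13 cases and fell in 1 among 515, with a class median of 0.01. Besides TEAD4, the homeobox genes MSX1 (1.83 ± 0.25 SE), MSX2 (0.94 ± 0.13) and MEIS2 (0.51 ± 0.09), the AP-1 subunit FOSL2 (0.84 ± 0.14), ETS1 (0.44 ± 0.08) and the imprinted zinc finger gene PLAGL1 (0.71 ± 0.14) rose. MSX2 stood at 76.9, 104, 539, 76.9 and 163 normalised reads with IWR-1 and at 118, 171, 996, 162 and 433 without it (limma adjusted p = 0.0131). Line 4 was the highest in both media, and in all 5 lines the removed well exceeded the kept one. FOSL2 went from 57.7, 70.4, 333, 97.2 and 106 to 90.6, 163, 709.8, 137 and 184, again with line 4 highest. VGLL3, a cofactor of TEAD factors (0.41 ± 0.08), and CITED2, which binds CBP and p300 (0.30 ± 0.06), were the 2 of 203 cofactors called. That share, 0.985%, was near the 0.951% called over all tested genes. ZNF503 (1.04 ± 0.18) was the 1 called among 436 zinc finger genes (0.229%). Calls were lost for MSX1 and MSX2 without line 11, MEIS2 and ZNF503 without line 1, 8 or 11, FOSL2 without line 1, 4 or 11, ETS1 without line 1, 2, 4 or 11, PLAGL1 without line 1, 4, 8 or 11, VGLL3 without line 1, 2, 8 or 11 and CITED2 without any 1 of the 5 lines.

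Of 187 cell cycle genes CCND1, the G1 cyclin D1 (1.15 ± 0.12 SE), and the growth arrest gene GADD45A (0.79 ± 0.11) rose. That is 1.07%, near the 0.951% called over all tested genes, and the class median was -0.01. CCND1 stood at 753, 772, 3814, 501 and 654 normalised reads with IWR-1 and at 1709.5, 1869.7, 5399, 1155 and 1961 without it (limma adjusted p = 0.0027). It was by far highest in line 4, which gained least, 0.50 against at least 1.18 in the other lines. CCND1 was called in every refit lacking a line; GADD45A lost its call without line 11.

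Membrane traffic gave 4 rises and 0 falls among 494 genes by limma and by edgeR, and 8 and 1 by DESeq2, with 23 higher and 12 lower at an unadjusted limma p under 0.05. ANXA2, an annexin that binds membranes and actin, stood at 721, 1467, 1966, 1798 and 1589 normalised reads with IWR-1 and at 1247, 2102, 2882, 3178 and 3412 without it (0.76 ± 0.08 SE, limma adjusted p = 0.00332). Line 1 was the lowest in both media. CAVIN1, a coat protein of caveolae (0.66 ± 0.11), STXBP6, which binds SNARE proteins (0.63 ± 0.10), and RTN4RL1, a receptor whose symbol placed it in this class (0.63 ± 0.12), rose as well. Among 687 channels and transporters the mechanically gated channel PIEZO1 (0.47 ± 0.09), the chloride channel family member CLIC6 (0.44 ± 0.07), the phosphate carrier SLC20A1 (0.30 ± 0.06) and the amino acid carrier SLC7A5 (0.36) rose, together with JPH2, a junctophilin that tethers membranes (0.90 ± 0.16). ANXA2 was called whichever line was left out, and calls were lost for CAVIN1, CLIC6 and JPH2 without line 1, 4 or 11, STXBP6 without line 1 or 11, RTN4RL1 without line 1, 2, 8 or 11, PIEZO1 without line 1, 2, 4 or 11 and SLC20A1 and SLC7A5 without line 1, 4, 8 or 11.

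Enzymes of metabolism rose in 7 cases and fell in 1, NMNAT2, among 896. CA3, a cytosolic carbonic anhydrase, had 529, 1170.5, 3448, 1493 and 3429.7 normalised reads with IWR-1 and 759.7, 1690.3, 4799, 2254 and 6062 without it (0.59 ± 0.07 SE, limma adjusted p = 0.00332). All lines gained and the groups overlapped. ASL, of the urea cycle (0.39 ± 0.06), B3GNT7, a glycosyltransferase (0.53 ± 0.08), the alcohol dehydrogenase ADH6 (0.55 ± 0.11), the serine synthesis enzyme PSAT1 (0.60), the folate enzyme ALDH1L2 (0.30) and the cytochrome CYP2S1 (0.43) also rose. MOGAT1, a monoacylglycerol acyltransferase whose symbol fell outside the classes, shared the smallest adjusted p with SH3RF2 and CCN2. It went from 2776, 3039.7, 1210.2, 2981 and 2304 to 7357, 8202, 2060.2, 6402 and 4834 (1.16 ± 0.09 SE, adjusted p = 0.000656). Line 4 was the lowest in both media, and in every line but this one the removed well lay above all 5 kept wells. CA3 and MOGAT1 were called in every refit lacking a line, and calls were lost for ASL and B3GNT7 without line 1 or 11, ADH6 and CYP2S1 without line 1, 2, 8 or 11, PSAT1 without line 1, 8 or 11 and ALDH1L2 without any 1 of the 5 lines.

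Protein turnover and RNA metabolism contributed single genes. The calpain protease CAPN2 (0.42 ± 0.07 SE) and the calpain inhibitor CAST (0.42 ± 0.08) rose side by side, the 2 called of 169 proteases and inhibitors. Their share, 1.18%, was near the 0.951% called over all tested genes. CAST had 1138, 1008, 1247, 1422 and 1432 normalised reads with IWR-1 and 1529, 1731, 1462, 1809 and 1760 without it (limma adjusted p = 0.0478), with every removed well above every kept well. In the ubiquitin class SH3RF2 (1.43 ± 0.11), USP43 (1.51 ± 0.16) and KLHL31 (0.82 ± 0.14) rose, 3 of 590. TENT5B, a poly(A) polymerase outside the canonical family (0.61 ± 0.07), and RBM20, a splicing regulator best known in heart muscle (0.73 ± 0.09), were the 2 called of 573 RNA genes. SH3RF2, USP43 and TENT5B were called in every refit lacking a line, and calls were lost for CAPN2 without line 1, 8 or 11, CAST without line 1, 4, 8 or 11, KLHL31 without line 1, 4 or 11 and RBM20 without line 1.

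Of 4714 named genes outside the classes limma called 34 higher and 0 lower (0.721%), with 270 higher and 171 lower at an unadjusted p under 0.05; edgeR called 36 higher and 0 lower, and DESeq2 70 higher and 21 lower. COLEC12, a scavenger receptor of the collectin family, stood at 466, 1027, 1298, 583 and 2069.9 normalised reads with IWR-1 and at 637, 2054, 3068, 1074 and 4495 without it (0.94 ± 0.10 SE, limma adjusted p = 0.00283). TMBIM1, a membrane protein of the BAX inhibitor motif family, went from 16606, 16443, 13991, 12806 and 10806 to 23429.6, 21218, 20110.4, 19615 and 14927 (0.49 ± 0.06 SE, adjusted p = 0.00416). Both were called whichever line was left out, and the wells of the media overlapped for both. Other genes among the 34, picked after their values were seen, are dystrophin DMD (0.33), the actin-associated genes FILIP1 (0.53) and RCSD1 (0.48), the AJUBA relative WTIP (0.37), the focal adhesion scaffold BCAR1 (0.37), the PDZ adaptor NHERF1 (0.35) and the junction regulator HEG1 (0.43). The Wnt feedback genes NKD1 (1.39 ± 0.22) and AXIN2 (0.74 ± 0.13) were also among the 34. Calls were lost for DMD, WTIP and BCAR1 without line 1, 4 or 11, FILIP1 without line 1, 2, 8 or 11, RCSD1 without any 1 of the 5 lines, NHERF1 without line 1, 8 or 11, HEG1 without line 1, 2, 4 or 11, NKD1 without line 4 or 11 and AXIN2 without line 4, 8 or 11. Among 923 genes named by number or structure alone 5 rose (0.542%, against 0.951% over all tested genes). These were FAM83B (1.71 ± 0.22), PRR5 (0.42 ± 0.07), TMEM200B (0.82 ± 0.14), SAMD4A (0.53) and TMEM132C (0.41). Their calls were lost for FAM83B without line 1, PRR5 without line 1 or 11 and TMEM200B, SAMD4A and TMEM132C without line 1, 4 or 11.

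Some called genes are neighbours in the annotated gene order, a description with no background share: KRT18 with KRT8, TSPAN9 with TEAD4, ITGB5 with HEG1, and CCN1 with the long non-coding RNA LOC101904769 and DDAH1 beyond it, 5 neighbouring pairs among the 164 called genes with a place in that order. LOC101904769 stood at 49.6, 125, 224, 120.4 and 139 normalised reads with IWR-1 and at 130.1, 188, 463, 143 and 246 without it (0.81 ± 0.16 SE, limma adjusted p = 0.0485), and DDAH1, which breaks down methylated arginine, rose by 0.73 ± 0.10 SE. Whether counting used the strand is not stated, so reads of overlapping neighbours cannot be told apart. The calls were lost for LOC101904769 without line 1, 2, 4 or 11 and DDAH1 without line 1 or 11.

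Of the 12 genes that fell, 6 carried a proper symbol, 5 were assembled transcripts with no NCBI gene ID, and 1 was the long non-coding RNA LOC107133160. Assembled transcripts made up 313 entries of the table and 0.337% of bovine reads. NMNAT2, which makes NAD in neurons, stood at 1095, 1173, 644, 914 and 659.5 normalised reads with IWR-1 and at 858, 918, 461, 651 and 487 without it (-0.42 ± 0.07 SE, limma adjusted p = 0.0214). APLNR, the apelin receptor, went from 139, 364, 631, 1169.6 and 3022 to 75.9, 289, 433, 866 and 2108 (-0.54 ± 0.09 SE, adjusted p = 0.0248). Every line lost reads of both, and the wells overlapped. EPHB1, an ephrin receptor, went from 71.9, 429.7, 616, 607 and 799 to 56.2, 318, 369, 454 and 391 (-0.59 ± 0.12 SE, adjusted p = 0.0471), with the lowest level in line 1. PDYN, the dynorphin precursor, fell by 0.45 ± 0.08 SE and the homeobox gene NKX2-8 by 1.45 ± 0.27. These 5 assembled transcripts fell by 0.40 to 0.48. Other assembled transcripts were called higher, at 0.81 and 1.05. The class without a symbol had 7 genes higher and 5 lower among 1284, or 0.935% against 0.951% over all tested genes. At an unadjusted limma p under 0.05 it had 31 higher and 91 lower. Line 4 had the lowest level in both media for 10 of the 12 genes that fell (83.3%), against 18.4% of all tested genes. Calls were lost for NMNAT2 and APLNR without line 1, 4 or 11, EPHB1 and PDYN without any 1 of the 5 lines, NKX2-8 without line 1, 2, 4 or 11 and LOC107133160 without line 1, 4, 8 or 11.

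**Figure D3:**
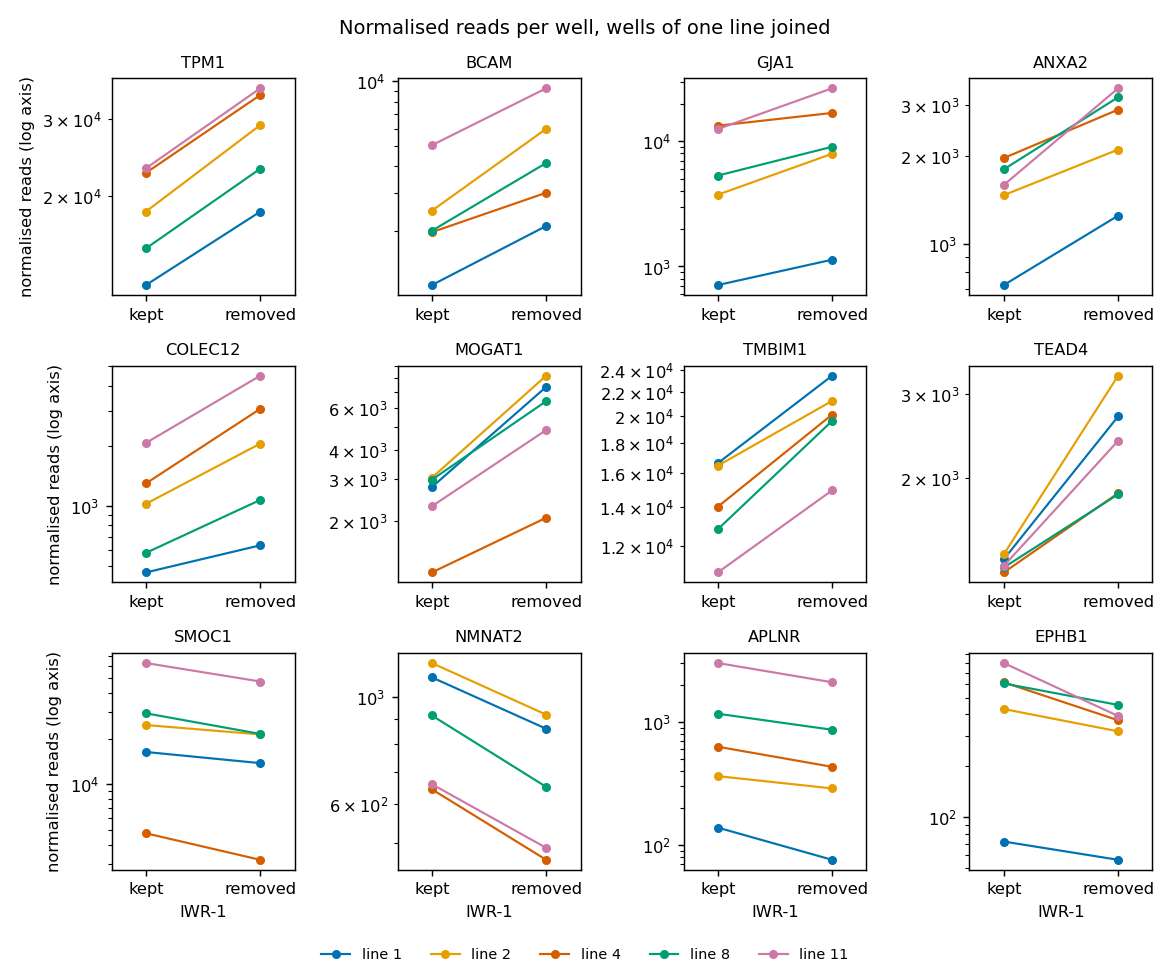
Normalised reads (vertical log axes, each with its own range) of 12 called genes in the 10 wells, with the kept and removed wells of each line joined and lines 1, 2, 4, 8 and 11 in separate colours. All lines slope upward in the first 8 panels and downward in the last 4, the levels of the lines differ widely, and only TEAD4 has no overlap between media.

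No gene was called in 8 classes with 2480 tested genes in all. These were chromatin, DNA repair and replication (387), immune and interferon genes (149), microtubules, cilia and motors (334) and mitochondrial machinery (211). Protein folding (156), ribosome and translation (278), pseudogenes (584) and small and other RNAs with gene segments (381) were the others. Over all tested genes 0.951% were called. At an unadjusted limma p under 0.05 these classes had 61 genes higher and 67 lower, among them 11 and 18 of chromatin, 8 and 0 of the ribosome and 4 and 0 of the mitochondria. Of all 18506 tested genes 1170 were higher and 700 lower at that threshold. In the lowest of the 4 bins of mean level 3 of 4627 genes were called, and the part of level in these classes was not tested. With the line as a block edgeR called 0 of the 2480, and DESeq2 called 7 higher and 3 lower.

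**Figure D4:**
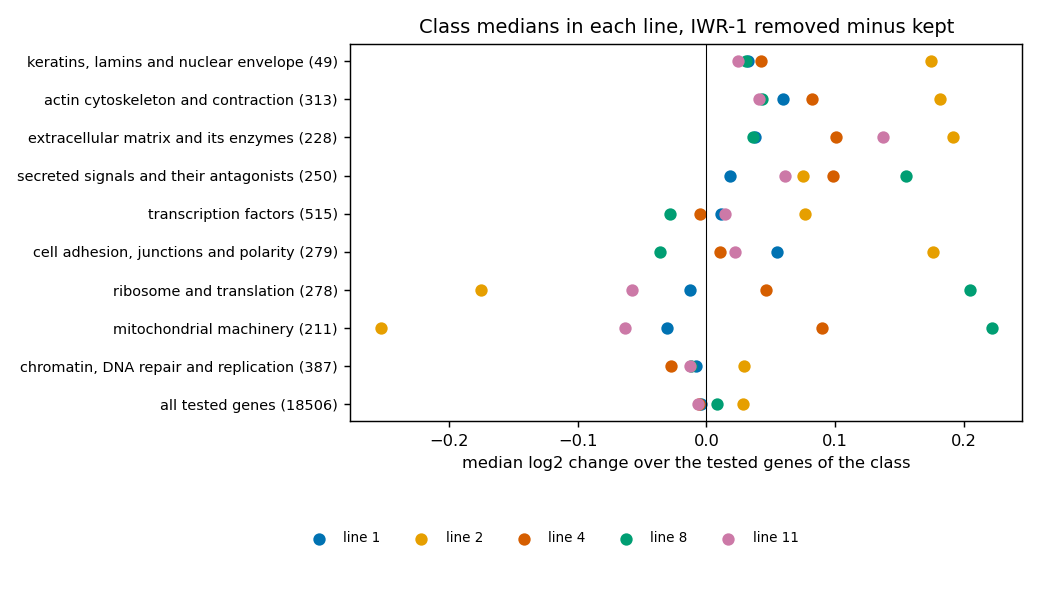
Median log2 change (IWR-1 removed minus kept) over the tested genes of 9 functional classes and of all tested genes, with 1 point per line. Keratin, actin, matrix and secreted-signal medians are positive in all 5 lines. Ribosomal and mitochondrial medians lie on both sides of zero, lowest in line 2 and highest in line 8.

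Class medians were read in each line. The median change of the actin class was 0.06, 0.18, 0.08, 0.04 and 0.04 in lines 1, 2, 4, 8 and 11, and that of the matrix class 0.04, 0.19, 0.10, 0.04 and 0.14. Both were positive in 5 of 5 lines. So were the medians of the keratin class (0.0245 to 0.175), secreted signals (0.0183 to 0.155) and metabolic enzymes (0.00212 to 0.08). Ribosomal and translation genes had medians of -0.01, -0.17, 0.05, 0.20 and -0.06, and mitochondrial genes of -0.03, -0.25, 0.09, 0.22 and -0.06. Line 2 was thus lowest and line 8 highest for both, and over the 5 lines the medians were -0.0093 and -0.0061. Adhesion genes had a median of 0.18 in line 2 and -0.04 in line 8. Over all 18506 genes the within-line changes correlated weakly between lines, with Pearson's r from -0.11 for lines 2 and 8 to 0.19 for lines 2 and 11, a description across genes of 1 pair of wells per line. The spread of within-line changes was widest in line 2 (SD 0.511 over genes) and narrowest in line 1 (0.396).

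The called genes were read in each line separately. The median change of the 164 genes that rose was 0.54, 0.64, 0.47, 0.55 and 0.64 in lines 1, 2, 4, 8 and 11, so line 4 gained least. Their share of bovine reads was 0.487% to 0.801% in kept wells and 0.681% to 1.12% in removed wells. In both media line 4 ranked first for 56 of them (34.1%) and last for 39 (23.8%); over all tested genes the shares were 19.1% and 18.4%. When the model was fitted on 4 lines and its calls were looked up in the fifth, 444 of 503 calls over the 5 fits (88.3%) had the same sign there. By held-out line these were 34 of 36 for line 1, 155 of 184 for line 2, 95 of 101 for line 4, 129 of 151 for line 8 and 31 of 31 for line 11. Of all tested genes, between 47.6% and 61.9% had the same sign in the held-out line as in the other 4.

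**Figure D5:**
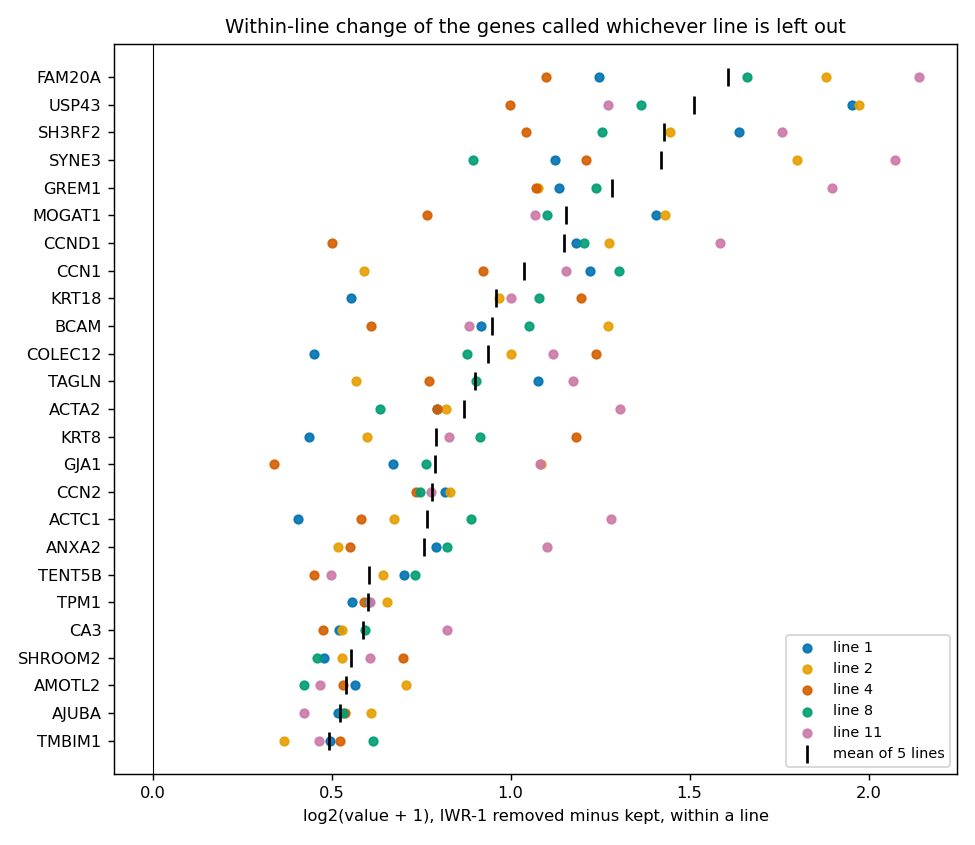
Within-line change, log2(value + 1) without IWR-1 minus with it, of the 25 genes called in all 5 refits that lack a line, with coloured points for the lines and a bar for their mean. Every point lies above zero, from GJA1 in line 4 at 0.34 to FAM20A in line 11 at 2.14, and the genes were selected on these same changes.

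Leaving out lines 1 or 11 removed most calls. Of the 176 called genes 34 were called without line 1 and 31 without line 11, against 132 without line 2, 89 without line 4 and 112 without line 8. A core of 25 genes was called in all 5 fits, each of them higher without IWR-1, and 22 genes were called in none. By class the 25 genes comprised 7 of actin and contraction, 3 of keratins and nuclear envelope, 2 matrix genes, 2 adhesion genes and 11 spread over the remaining classes. edgeR and DESeq2 on the recovered reads, with the line as a block, each called 175 of the 176, and 174 were called by all 3 tools. DMRTA1 was the gene not called by edgeR, and MMP3 received no adjusted p from DESeq2.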

How the data were processed

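RNA of 5 bovine embryonic stem cell lines on mouse feeders was sequenced in 10 wells, 1 per line and medium, after poly(A) selection and NEBNext Ultra library preparation, per the labels' protocols. Reads were mapped to ARS-UCD1.3 and GRCm39, per the labels. Tools were featureCounts 1.5.0-p3, StringTie 1.3.3b, HISAT2 2.0.5 and fastp, per the submitters' processing notes. Strand use and the handling of reads aligning to both genomes were not given in the sources used here. Per gene and library, the authors deposited a normalised signal. All positive values (100%) were whole multiples of 1 step per library, at a tolerance of 0.01, so reads were recovered by division; no source records that scaling. Among the mouse values 2 unlabelled columns were left out.

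Of 27590 bovine gene IDs, 24660 matched a symbol in a RefSeq table of assembly ARS-UCD2.0, used for names, biotypes and gene order only. Genes with at least 10 normalised reads in at least 5 libraries were tested on log2(value + 1) with limma 3.58.1 in R 4.3.3, using medium and line as terms and a trend of variance on level; fold changes on this scale understate those of low genes. A gene was called at a Benjamini-Hochberg adjusted p under 0.05. Wells were paired by line number, since both wells of a number came from 1 cell line, and deviations from the group means correlated within lines at 0.617 to 0.883. Each line gave 1 well per medium, so the spread between lines includes that between wells. Levels are not compared between genes. The mouse share is recovered mouse reads over all recovered reads. edgeR 4.0.16 and DESeq2 1.42.0 on recovered reads, other filters, pseudocounts, scalings and terms, and fits without each line were alternatives.

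Classes were assigned by biotype first, and protein-coding genes with a proper symbol were then sorted by 25 symbol patterns. Genes without a symbol formed a class of their own. A pattern was matched by 9799 tested genes. The pattern for cell cycle genes was corrected to leave out CDC42 genes after the classes were seen. Members and lists were chosen with earlier results of these data known. Named genes were the 3 called genes with a proper symbol and the smallest adjusted p per class, the 10 with the smallest adjusted p, the 10 with the largest difference in mean normalised reads, all called genes with a symbol that fell, and AXIN2, POU5F1, SOX2 and NANOG. A gene that this rule names is not reported here.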

Additional observations from a re-analysis of the deposited data

Results flagged for a closer look

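Among the 5 wells of a medium, a well was singled out where its gap to the nearest other well was a large part of the whole range, for the named genes and the mouse share. This held for 24 of 134 groups of 5 wells, where chance gives about 1 in 20 for independent, normally distributed values; wells of 1 line are not independent between media. Line 4 was the outlying line in 19 of the 24, always as the highest; line 11 was in 3 and lines 1 and 8 in 1 each.

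In both media line 4 stood apart for the cyclin gene CCND1, at 3814 normalised reads with IWR-1 against 501 to 772 in the other lines, and at 5399 against 1155 to 1961 without it. For AXIN2 the kept well of line 4 had 3202 against 228 to 461, and its removed well 5945 against 335 to 1091. For the matricellular gene CCN2 the values of line 4 were 6038 against 451 to 558 and 10063 against 757 to 962. THBS1 reached 15442 against 2125 to 5208 in kept wells and 23849 against 4583 to 9582 in removed wells. The receptor gene ROR2 reached 3919 against 1434 to 1915 and 5203 against 1869 to 2695, and NPR3 644 against 20.4 to 38.9 and 817 against 56.2 to 142. The cofactor VGLL3 was at 23656 against 1001 to 4327 and at 24586 against 1325 to 6712.

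With IWR-1 only, line 4 was apart for FAM20A (649 against 30.6 to 167), MSX1 (331 against 4.05 to 38.9), MSX2 (539 against 76.9 to 163) and ZNF503 (1345 against 81 to 264). Its mouse share without IWR-1 was 41.4%, against 21.2 to 26.6% in the other lines. Line 11 was apart for the integrin gene ITGA8 without IWR-1 (1909.8 against 271 to 716) and, with IWR-1, for CDC42EP1 (2838 against 1377 to 1704) and CITED2 (10399 against 5152 to 6409). With IWR-1, line 1 was apart for VEGFA (2383 against 556 to 1031) and line 8 for FAM83B (121 against 25 to 52.5).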

How the results depend on the processing

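Of 64 named genes that were called, 0 changed sign in any of 16 alternatives, 1 of which, the filter at 50 normalised reads, left 2 of them untested. Each of these genes had moved in 1 direction in every line. Limma fits that left out a line or changed only the block, trend, filter or pseudocount could therefore not turn a sign. With no replicate block, limma called 0 genes higher and 0 lower, and so did edgeR without the block, which was chosen after seeing the data; the same held for limma without the trend (smallest adjusted p 0.0939) and with the mouse share as a covariate, and the keratin, actin and matrix classes then held 0 called genes. The cause was not tested. With no filter 51 genes were higher and 2 lower, with 3, 10 and 4 in these classes. DESeq2 called 358 higher and 62 lower, with 35 actin and 30 matrix genes. With 1 line left out, and so fewer wells, 31 to 159 genes were higher and 0 to 25 lower. The class of keratins and nuclear envelope then held 3 to 4 called genes, the actin class 7 to 20 and the matrix class 2 to 14. The remaining alternatives (pseudocounts of 0.5 and 8, at least 50 normalised reads in 5 libraries, TMM scaling, and edgeR with the block) kept both counts within 1.5 times. The sign of POU5F1, which was not called, turned from -0.01 to 0.155 with the covariate, and to 0.01, 0.02 and 0.03 without line 1, 2 and 11 (log2 fold change of POU5F1 between -0.0631 and 0.0328 with 1 line left out); that of SOX2 turned to 0.0034 with the covariate. The difference in the mouse share of reads was -4.32 to -2.90 points with 1 line left out, and unpaired its exact permutation test gave p = 0.452. With the stricter filter 533 of 612 calls (87.1%) had the same sign in the held-out line. With 1 well per line and medium, depth limits chiefly genes near the filter.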

Other observations

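Over all tested genes the wells of the media did not overlap for 13 genes upward (0.0702%) and 8 downward (0.0432%). Of these 6 and 0 were called. Some of those that missed the threshold are given here and were picked out for this. Higher in all removed wells were the tetraspanin TSPAN12 (log2 fold change 0.45 ± 0.09 SE with a limma adjusted p of 0.0544), the phospholipid flippase ATP10A (0.76 ± 0.17, adjusted p = 0.0725), the TWEAK receptor TNFRSF12A (0.48 ± 0.12, adjusted p = 0.116), the lipoprotein receptor SCARB1 (0.21 ± 0.06, adjusted p = 0.181) and the sulfotransferase CHST1 (0.31 ± 0.10, adjusted p = 0.277). In lines 1, 2, 4, 8 and 11, SCARB1 had 4461, 4033, 4428, 4315 and 4433 normalised reads in kept wells and 4787, 5308, 5349.6, 4561 and 5149 in removed wells. Lower in all removed wells were the RNA-binding protein gene TIA1 (-0.09 ± 0.05, adjusted p = 0.648), AGTRAP (-0.13 ± 0.07, adjusted p = 0.633), FKBPL (-0.26 ± 0.12, adjusted p = 0.475) and the kinase gene CDKL1 (from 17.4 ± 4.39 to 8.23 ± 2.27 normalised reads, SD, n = 5, adjusted p = 0.305). TIA1 stood at 15360.4, 16091, 15720.4, 15529 and 15266 in kept wells and 15104, 15169, 14758, 13998 and 14128 in removed wells, a small difference at a level that varied little between lines.

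The trophoblast and intestinal homeobox gene CDX2, below the filter and not tested, was listed at 86.6 normalised reads in line 4 after removal of IWR-1 and at 1.19 in its kept well, against at most 0.973 in the other 8 wells. This is 1 well. TFAP2A was at 376 and 428 in line 4 and at most 22.9 elsewhere, and KRT7 was lower in line 4, at 39.3 and 68.1, than in every other well.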
